A study of Bos taurus with 8 samples.

Results

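Genes of the ATF4 stress response and of serine synthesis were followed in bovine mammary epithelial cells with and without short hairpin RNA (shRNA) against EEF1D. The 10 genes were ATF4, ATF5, DDIT3, ASNS, PSAT1, PHGDH, PSPH, SHMT2, TRIB3 and CHAC1, and every array probe that carries 1 of these names in the scanner files was taken. That gave 19 of 43653 probes, for 9 of the 10 genes and of 16415 genes named on the array. No probe carries the name ATF5, so no value is given for it. All 9 genes passed the filter on dim probes, which asked for a signal well above background on 2 arrays or more, and 18 of the 19 probes met that on all 8 arrays.

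The cells were primary mammary epithelial cells taken from a lactating Holstein cow and used at the fifth passage. There were 3 arrays of cells with the EEF1D-1357 shRNA, 3 of cells with the EEF1D-1893 shRNA and 2 controls labelled as without shRNA. EEF1D is the delta subunit of elongation factor 1, which helps recharge eEF1A during translation. The labels name no non-targeting shRNA, but other naming in the deposit leaves it uncertain whether the controls held a negative control construct. If they did not, introducing an shRNA and losing EEF1D cannot be told apart. Nothing in the labels says that the replicates were separate cultures, so the p-values cover the spread between these arrays only, which may be technical.

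ATF4 is a bZIP transcription factor of the integrated stress response. When eIF2 alpha is phosphorylated, most translation slows while the ATF4 mRNA is translated more, so that much of its control lies after transcription. In mouse and human cells ATF4 activates genes for amino acid synthesis and uptake, among them ASNS and the serine enzymes PHGDH, PSAT1 and PSPH, and genes of the stress response such as DDIT3, TRIB3 and CHAC1. Mammary cells take up and make amino acids for milk protein, and serine feeds glycine and one-carbon units through SHMT2.

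The level used throughout is the scaled log2 signal, the log2 processed spot intensity minus the 75th percentile of its array, so 0 is that percentile and 1 unit is a doubling. Levels are compared only within a probe, apart from the summed levels of marker lists. Each gene is represented by its brightest probe unless another is named, and fold changes are log2 differences from limma fitted to 12550 genes, with Benjamini-Hochberg adjusted p-values (adjusted p) and a threshold of 0.05. Whether a lower signal means fewer cells with the transcript or less of it per cell cannot be told apart in these bulk samples.

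The probes read different stretches of each transcript, and several results below differ between probes of the same gene. Why they differ was not tested. The 60-base sequences of some probes for ATF4, DDIT3, CHAC1, ASNS, PSAT1, PSPH and SHMT2 are given 5′ to 3′ from the scanner files, with positions in Btau_3.1 and the strand. CHAC1 A_73_115001 and ASNS A_73_P041301 are the brightest or only probes of their genes, and the others are set against the brightest probe of theirs.
ATF4 A_73_P252881 (chr5:118119580-118119639, plus strand): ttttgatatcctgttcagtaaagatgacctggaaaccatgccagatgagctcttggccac
ATF4 A_73_P252266 (chr5:118119912-118119971, plus strand): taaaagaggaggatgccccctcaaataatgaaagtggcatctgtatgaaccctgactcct
DDIT3 A_73_117632 (chr5:60419092-60419151, plus strand): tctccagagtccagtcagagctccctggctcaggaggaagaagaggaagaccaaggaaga
CHAC1 A_73_115001 (chr10:36399249-36399308, plus strand): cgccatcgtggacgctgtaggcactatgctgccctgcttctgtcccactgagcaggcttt
ASNS A_73_P041301 (chr4:15389949-15390532, minus strand): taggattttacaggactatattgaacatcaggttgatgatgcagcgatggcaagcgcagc
ASNS A_73_P409606 (chr4:15396413-15396472, minus strand): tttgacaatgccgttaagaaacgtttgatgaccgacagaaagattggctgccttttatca
PSAT1 A_73_P257961 (chr8:56632267-56632326, plus strand): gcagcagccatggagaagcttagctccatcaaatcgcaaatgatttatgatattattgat
PSPH A_73_117821 (chr25:29529049-29529108, minus strand): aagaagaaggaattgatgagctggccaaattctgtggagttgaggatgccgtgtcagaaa
SHMT2 A_73_P294306 (chr5:60721551-60721695, minus strand): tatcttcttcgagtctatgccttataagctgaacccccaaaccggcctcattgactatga
The ASNS probe A_73_P041301 spans 584 bases of the genome and the SHMT2 probe 145 bases, against 60 bases for the others shown, so the aligned stretches of these 2 are interrupted in the genome. Probe positions relative to exons were not analysed here.

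Per array, 60.6% to 71.5% of probes gave a signal well above background, and 0 spots were saturated. The 75th percentile of the processed intensity was 1265 in control replicate 1 and 1597 to 2078 in the other arrays. Scaling by that percentile therefore raises the levels of control replicate 1 most. Slide 1 carried control replicate 2 beside all 3 EEF1D-1357 arrays, and slide 2 carried control replicate 1 beside all 3 EEF1D-1893 arrays. The 2 controls differed from each other with an SD of 0.83 (log2 difference over genes), against 0.495 to 0.730 for pairs within the shRNA groups. Control replicate 1 was the highest of the 8 arrays for 6 of the 9 genes (39.1% of all genes) and for 13 of the 19 probes (36.4% of all probes), and it was above control replicate 2 for 8 of the 9 genes (63% of all genes), so the value for both shRNAs is also given for each of the 9 genes against each control alone. EEF1D itself (A_73_115715) stood at 5.97, 5.85 and 5.09 in EEF1D-1357, at 5.99, 5.74 and 5.76 in EEF1D-1893 and at 7.11 and 6.14 in the controls. Every shRNA array was below both controls, and the mean of both shRNA groups was 53.9% of control (log2 fold change -0.89, SE 0.32, adjusted p = 0.242 by limma), at -0.50 on slide 1 and -1.29 on slide 2. Of 10 luminal markers, 9 were well above background on all 8 arrays, KRT8, KRT18 and EPCAM among them, and ELF5 on 1. Markers of other cell types were also measured: COL1A1, COL3A1 and DCN of fibroblasts, VWF of endothelium and PTPRC, CD3D, CD14, CD68, CD79A and LYZ of leukocytes were well above background on all 8 arrays. PDGFRB, PECAM1, KDR, TEK, CD3E and CD48 were so on 0. Of the adipocyte markers, FABP4 was so on 7 arrays, CIDEC on 4, PLIN1 on 3 and ADIPOQ and LEP on 1 each. Some epithelial markers varied widely between arrays: KRT14 ran from 0.20 to 6.91 and MUC1 from -0.0040 to 3.68. Summed levels of marker lists add the scaled signal off the log2 scale over different probes, so the brightest probes weigh most. For the 9 measured luminal markers (of 10) the sum was 493 to 522 in EEF1D-1357, 487 to 555 in EEF1D-1893 and 934 and 517 in the controls. Of the fibroblast markers 8 of 9 were measured, with a median log2 fold change of -0.51 for both shRNAs and summed levels of 1.33 to 1.54 in EEF1D-1357, 1.64 to 3.94 in EEF1D-1893 and 2.28 and 2.85 in the controls. The 9 basal and myoepithelial markers, all measured, had a median of -0.41 with 9 of 9 below 0, and summed levels of 235 to 267 in EEF1D-1357, 203 to 382 in EEF1D-1893 and 356 and 365 in the controls. MYLK, a kinase of contractile cells, stood at -3.50 (SE 0.92, adjusted p = 0.171) with all 6 shRNA arrays below both controls. OXTR, the oxytocin receptor, was below both controls in all 6 too, but was well above background on 2 arrays only. The part of other cell types in the results was not tested.

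Across the 9 genes, PHGDH and PSAT1, the first enzymes of serine synthesis, had the lowest log2 fold changes for both shRNAs against control (-1.41 and -1.21). CHAC1, ATF4, SHMT2 and ASNS also lay below 0, whereas DDIT3, TRIB3 and PSPH lay above 0. None passed the threshold: 0 of the 9 were called by limma for both shRNAs, for EEF1D-1357, for EEF1D-1893 or between the shRNAs, against 0% of all 12550 genes in each comparison. At an unadjusted p under 0.05, 2 of 9 were lower for both shRNAs (ATF4 and PSAT1), against 16.9% of all genes in either direction and 9.59% in the lower direction. For EEF1D-1357 it was 3 of 9 (ATF4, PSAT1 and PHGDH, all lower) against 16.2% of all genes, for EEF1D-1893 0 of 9 against 14.1%, and between the shRNAs 0 of 9 against 6.41%. The median log2 fold change of the 9 genes was -0.43 for both shRNAs, against -0.07 over all genes tested, and 6 of 9 lay below 0 against 57.2% of all genes. It was -0.54 for EEF1D-1357 (all genes -0.09) and -0.30 for EEF1D-1893 (all genes -0.03), with 6 of 9 below 0 for each, against 58.5% and 53.2% of all genes. These 2 comparisons use the same control arrays.

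**Figure D1:**
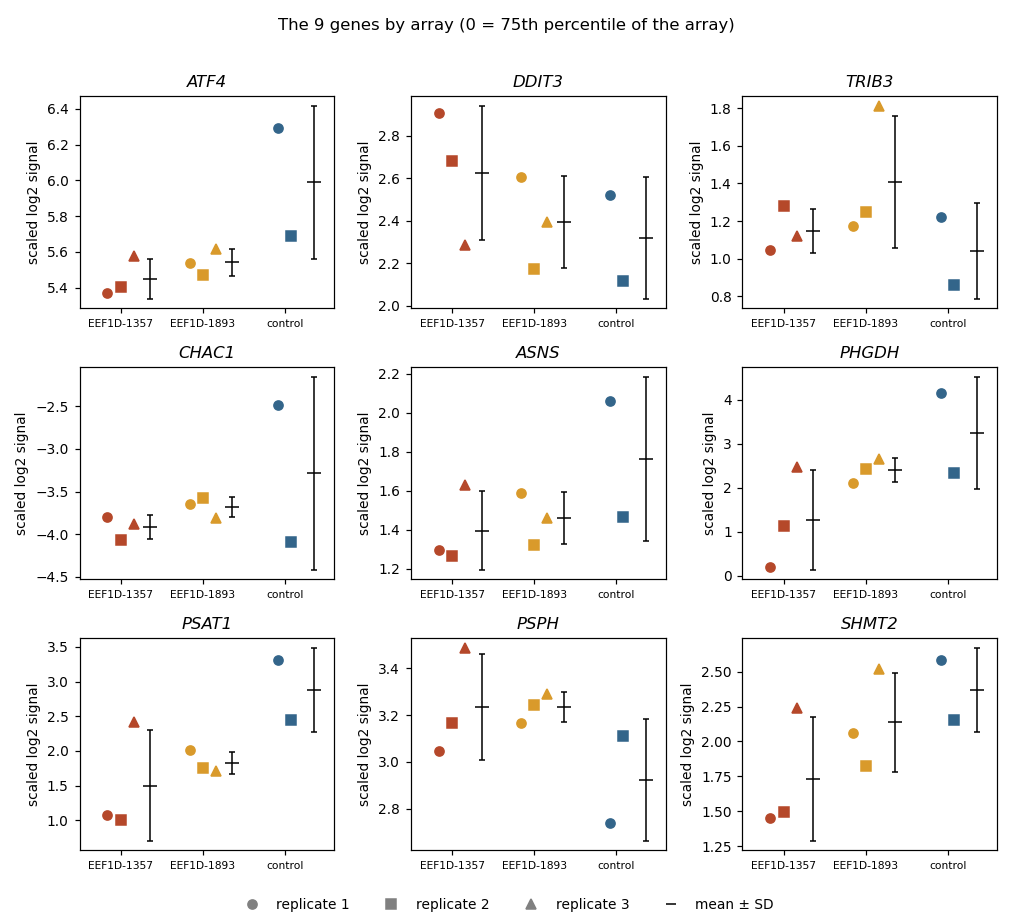
Scaled log2 signal (vertical axis, 1 unit is a doubling) of the brightest probe of each of the 9 genes in every array, with the EEF1D-1357, EEF1D-1893 and control groups from left to right, markers by replicate and mean ± SD beside them. ATF4 and PSAT1 are the genes with all 6 shRNA arrays below both controls; control replicate 1 is the highest array for 6 of the 9 genes.

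ATF4, the transcription factor of the group, had a scaled signal of 5.37, 5.40 and 5.58 in EEF1D-1357, of 5.54, 5.47 and 5.62 in EEF1D-1893 and of 6.29 and 5.69 in the controls (A_73_P033631). All 6 shRNA arrays lay below both controls, and the shRNA arrays differed less from each other than the 2 controls did. Before scaling, the groups overlapped on this probe. Its intensity was 95898 in EEF1D-1357 replicate 3 and 96998 in EEF1D-1893 replicate 3, against 99935 and 95732 in the controls. On A_73_P252266 the highest shRNA array before scaling was 2288, against 2910 and 2319 in the controls. The means were 5.45 ± 0.11 in EEF1D-1357, 5.54 ± 0.07 in EEF1D-1893 (SD, n = 3 each) and 5.99 ± 0.43 in control (SD, n = 2). With both shRNAs the signal was 71.0% of control (log2 fold change -0.49, SE 0.18, adjusted p = 0.243 by limma, below in 6 of 6 arrays). ATF4 and PSAT1 were the 2 of 9 genes with all 6 shRNA arrays below both controls, as were 9.18% of all genes, and 0 of 9 had them all above, as did 7.71%. Over probes it was 3 of 19 below, 2 of them for ATF4, against 9.99% of all probes. Taken by shRNA, 2 of 9 genes had EEF1D-1357 arrays that did not overlap the controls (ATF4 and PSAT1, both below), where 30.6% of all genes did not overlap and 18.4% lay below. For EEF1D-1893 it was 3 of 9 (ATF4 and PSAT1 below, PSPH above), where 28.3% of all genes did not overlap and 14.6% lay below.

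The difference in ATF4 was -0.54 for EEF1D-1357 (SE 0.20, adjusted p = 0.266) and -0.45 for EEF1D-1893 (SE 0.20, adjusted p = 0.368), and between the shRNAs it was -0.09 (adjusted p = 0.904). Against the control of the same slide it was -0.24 on slide 1 and -0.75 on slide 2. With slide as a block, where all of the residual spread comes from the shRNA arrays and none from the difference between the controls, the call passed for both shRNAs (adjusted p = 0.04998 by limma, where 5.48% of all genes were called) and for EEF1D-1893 (adjusted p = 0.031, 14.6% of all genes called). It did not for EEF1D-1357 (adjusted p = 0.480, 0.207% of all genes called). Against control replicate 2 alone, the ATF4 value was -0.19, against -0.80 with control replicate 1 alone.

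The 2 other ATF4 probes gave values in the same direction. A_73_P252266 stood at 0.14, -0.08 and 0.02 in EEF1D-1357, at 0.04, -0.08 and 0.07 in EEF1D-1893 and at 1.19 and 0.32 in the controls, with all shRNA arrays below both controls (log2 fold change -0.74, SE 0.22, adjusted p = 0.183). A_73_P252881 stood at 2.25, 2.35 and 2.66 in EEF1D-1357, at 2.55, 2.44 and 2.75 in EEF1D-1893 and at 3.24 and 2.74 in the controls. Here EEF1D-1893 replicate 3 overlapped control replicate 2, and the fold change was -0.49 (SE 0.19, adjusted p = 0.241). With slide as a block, A_73_P252881 did not pass for both shRNAs (adjusted p = 0.095 by limma over probes) or for EEF1D-1893 (0.081). In that fit A_73_P252266 passed for both shRNAs (0.031) and for EEF1D-1893 (0.021). The share of all probes called there was not counted. Over genes, the slide block called 5.48% for both shRNAs and 14.6% for EEF1D-1893.

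DDIT3, also called CHOP, is a bZIP factor linked to cell death under lasting ER stress. Its brightest probe stood at 2.91, 2.68 and 2.28 in EEF1D-1357, at 2.61, 2.17 and 2.40 in EEF1D-1893 and at 2.52 and 2.12 in the controls. The groups overlapped, with a log2 fold change of 0.19 for both shRNAs (SE 0.21, adjusted p = 0.664). It was -0.01 against control replicate 1 alone and 0.39 against control replicate 2 alone. The other DDIT3 probe, A_73_117632, stood at 0.81, 0.48 and 0.12 in EEF1D-1357, at 0.58, 0.05 and 0.28 in EEF1D-1893 and at 1.41 and 0.37 in the controls, for a log2 fold change of -0.50 (SE 0.31, adjusted p = 0.414). The 2 probes therefore differ in sign, and neither passed.

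TRIB3, a pseudokinase that binds ATF4 and AKT, stood at 1.05, 1.28 and 1.12 in EEF1D-1357, at 1.17, 1.25 and 1.81 in EEF1D-1893 and at 1.22 and 0.86 in the controls. EEF1D-1893 replicate 3 was the highest array and the groups overlapped (log2 fold change 0.24, SE 0.21, adjusted p = 0.573). The value was 0.06 against control replicate 1 alone and 0.42 against control replicate 2 alone. Its probe A_73_P365636 was well above background on 4 arrays, all 3 of EEF1D-1893 and control replicate 1, and on 0 of EEF1D-1357. It stood at -7.30, -5.23 and -6.17 in EEF1D-1357, at -4.55, -1.79 and -5.81 in EEF1D-1893 and at -5.45 and -6.69 in the controls, with groups that overlapped. For a bound, each EEF1D-1357 array was taken at the higher of its own signal and the lowest signal well above background. The mean of EEF1D-1893 was then 2.45-fold that of EEF1D-1357 (adjusted p = 0.775 by limma on the signals as measured). That mean rests largely on EEF1D-1893 replicate 2, and EEF1D-1893 replicate 3 lay below EEF1D-1357 replicate 2.

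CHAC1 encodes an enzyme that degrades glutathione and is a sensitive ATF4 target in human and mouse cells. It stood at -3.79, -4.07 and -3.88 in EEF1D-1357, at -3.65, -3.58 and -3.81 in EEF1D-1893 and at -2.49 and -4.09 in the controls. The 2 controls were 1.60 apart and the shRNA arrays lay between them. The log2 fold change was -0.51 for both shRNAs (SE 0.37, adjusted p = 0.496) and turned with the control, at -1.31 against control replicate 1 alone and 0.29 against control replicate 2 alone. Each of these uses a control group of 1 array, whose spread is assumed to be that of the shRNA groups. With slide as a block, CHAC1 was called for EEF1D-1893 (adjusted p = 0.024 by limma, where 14.6% of all genes were called). That value sets EEF1D-1893 against control replicate 1 only, and every EEF1D-1893 array lay above control replicate 2.

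ASNS, which makes asparagine, had a scaled signal of 1.29, 1.26 and 1.63 in EEF1D-1357, of 1.59, 1.32 and 1.46 in EEF1D-1893 and of 2.06 and 1.46 in the controls. Control replicate 2 lay within the range of the shRNA arrays, and the fold change was -0.33 for both shRNAs (SE 0.20, adjusted p = 0.409). It was -0.63 against control replicate 1 alone and -0.04 against control replicate 2 alone. The second ASNS probe, A_73_P409606, stood at -1.59, -1.59 and -1.35 in EEF1D-1357, at -1.37, -1.58 and -1.35 in EEF1D-1893 and at -1.34 and -1.69 in the controls, with a fold change of 0.04 (SE 0.15, adjusted p = 0.903). As with DDIT3, the probes of ASNS differ in sign.

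PHGDH, the enzyme of the first step of serine synthesis from a glycolytic intermediate, has 1 probe and had the widest spread of the 9 genes. It stood at 0.21, 1.13 and 2.46 in EEF1D-1357, at 2.10, 2.43 and 2.64 in EEF1D-1893 and at 4.14 and 2.34 in the controls. EEF1D-1357 replicates 1 and 2 were the lowest 2 arrays and control replicate 1 the highest, while EEF1D-1357 replicate 3 and the EEF1D-1893 arrays overlapped control replicate 2. The means were 1.27 ± 1.13 in EEF1D-1357, 2.39 ± 0.27 in EEF1D-1893 (SD, n = 3 each) and 3.24 ± 1.28 in control (SD, n = 2). The fold change for both shRNAs was -1.41, or 37.6% of control (SE 0.65, adjusted p = 0.321). It was -1.97 for EEF1D-1357 (SE 0.72, adjusted p = 0.266) and -0.85 for EEF1D-1893 (SE 0.72, adjusted p = 0.624). Without control replicate 1 the EEF1D-1893 value was 0.06. The value for both shRNAs was -2.31 against control replicate 1 alone and -0.51 against control replicate 2 alone.

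PSAT1 carries out the second step, the transfer of the amino group. It stood at 1.07, 1.01 and 2.42 in EEF1D-1357, at 2.02, 1.76 and 1.71 in EEF1D-1893 and at 3.30 and 2.45 in the controls. All 6 shRNA arrays lay below both controls, although EEF1D-1357 replicate 3 was close to control replicate 2. Before scaling, the intensity of EEF1D-1357 replicate 3 was 10753, above the 10135 of control replicate 2. The fold change for both shRNAs was -1.21, or 43.2% of control (SE 0.41, adjusted p = 0.231, below in 6 of 6 arrays). It was -1.38 for EEF1D-1357 (SE 0.46, adjusted p = 0.244) and -1.05 for EEF1D-1893 (adjusted p = 0.366). Against the control of the same slide PSAT1 was -0.95 on slide 1 and -1.48 on slide 2, and the fit that blocks on slide gave an adjusted p of 0.118. It was -1.64 against control replicate 1 alone and -0.78 against control replicate 2 alone. Its second probe, A_73_P257961, stood at -4.87, -5.00 and -3.42 in EEF1D-1357, at -3.87, -4.35 and -4.05 in EEF1D-1893 and at -1.84 and -3.57 in the controls. There the fold change was -1.55 (SE 0.55, adjusted p = 0.217) and EEF1D-1357 replicate 3 lay just above control replicate 2.

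PSPH removes the phosphate in the last step of the pathway. Its brightest probe, A_73_P268996, stood at 3.05, 3.17 and 3.49 in EEF1D-1357, at 3.17, 3.24 and 3.29 in EEF1D-1893 and at 2.74 and 3.11 in the controls. All 3 EEF1D-1893 arrays were above both controls, and EEF1D-1357 replicate 1 was between them. The fold change was 0.31 for both shRNAs (SE 0.17, adjusted p = 0.378), opposite in sign to PHGDH and PSAT1, and it was -0.11 (SE 0.16, adjusted p = 0.742) on A_73_117821, the other PSPH probe. On the brightest probe it was 0.50 against control replicate 1 alone and 0.13 against control replicate 2 alone.

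SHMT2, the mitochondrial enzyme that turns serine into glycine and one-carbon units, stood at 1.45, 1.50 and 2.24 in EEF1D-1357, at 2.06, 1.83 and 2.52 in EEF1D-1893 and at 2.58 and 2.15 in the controls. EEF1D-1357 replicates 1 and 2 were the lowest arrays, and EEF1D-1357 replicate 3 and EEF1D-1893 replicate 3 overlapped the controls. The fold change was -0.43 for both shRNAs (SE 0.28, adjusted p = 0.451), -0.42 on slide 1 and -0.44 on slide 2. Against control replicate 1 alone it was -0.65, and against control replicate 2 alone -0.22. The other SHMT2 probes gave -0.29 and -0.43. Of the 7 genes with several probes, ATF4, PSAT1, SHMT2 and TRIB3 therefore had 1 sign over their probes for both shRNAs, and ASNS, DDIT3 and PSPH did not.

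**Figure D2:**
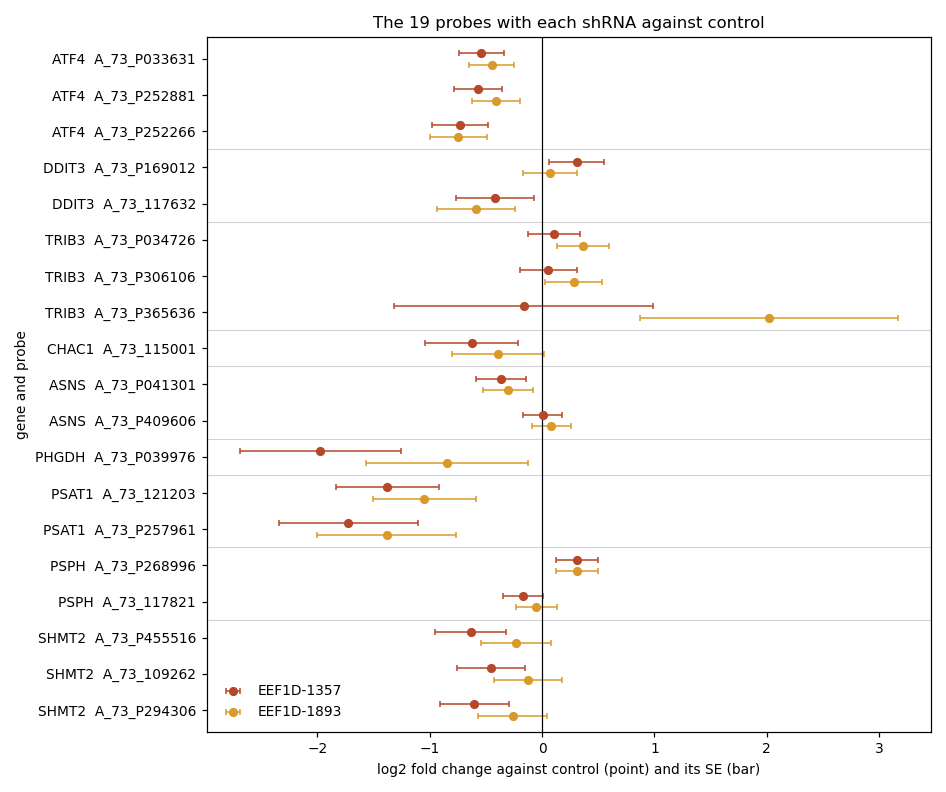
Log2 fold change against control (horizontal axis, point) and its SE (bar) for each of the 19 probes, with EEF1D-1357 above EEF1D-1893 for every probe. All 3 ATF4 probes, both PSAT1 probes, the PHGDH probe and all 3 SHMT2 probes lie below 0 with both shRNAs. DDIT3, ASNS and PSPH have probes on both sides with each shRNA, and TRIB3 has them with EEF1D-1357 only (A_73_P365636 at -0.16). The wide bars of TRIB3 A_73_P365636 belong to a probe that was well above background on 4 arrays.

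The sizes differed with the control used. With 1 control left, the calls rest on the spread within the shRNA groups alone. Against control replicate 1 alone the median of the 9 genes was -0.65, with 2 of 9 called (ATF4 and CHAC1) where 23% of all genes were called. Against control replicate 2 alone it was -0.04, with 5 of 9 below 0 and 0 called where 0.199% of all genes were called. Within slides the median of the 9 genes was -0.07 on slide 1 (all genes 0.03) and -0.60 on slide 2 (all genes -0.19). All 6 shRNA arrays lay below control replicate 1 for 6 of the 9 genes, against 41.8% of all genes. They lay below control replicate 2 for 2 of the 9, ATF4 and PSAT1, against 16.8% of all genes.

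**Figure D3:**
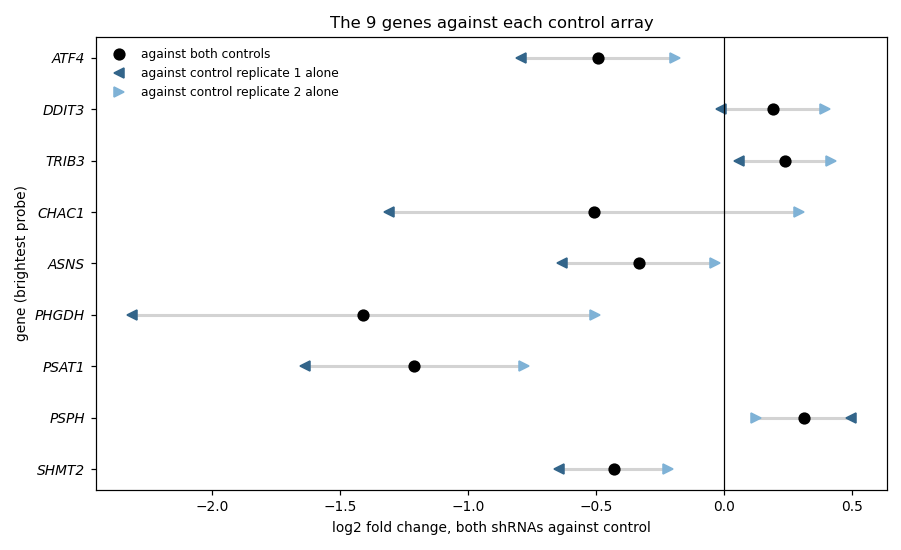
Log2 fold change of both shRNAs (horizontal axis) for each gene against both controls (circle), against control replicate 1 alone (left-pointing triangle) and against control replicate 2 alone (right-pointing triangle). CHAC1 runs between -1.31 and 0.29, and DDIT3 between -0.01 and 0.39, so both cross 0 with the control used; ATF4, PHGDH, PSAT1, SHMT2 and ASNS stay below 0.

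The arrays within a group also differed. EEF1D-1357 replicates 1 and 2 were the lowest of the 8 arrays for 7 and 5 of the 19 probes, against 11.5% and 13.5% of all probes, and control replicate 2 was the lowest for 5, against 17.8%. PHGDH, PSAT1 and SHMT2 were lowest in those 2 arrays and higher in EEF1D-1357 replicate 3. The median of a list of 10 cell division genes was also lowest in those 2 arrays and highest in control replicate 1. The median of its centred levels (each gene's level minus its mean over the 8 arrays) was -1.56, -0.87 and 0.39 in EEF1D-1357, -0.06, -0.14 and 0.86 in EEF1D-1893 and 1.02 and 0.50 in the controls. Its median fold change for both shRNAs was -0.93, with 10 of 10 below 0, 0 called and 3 lower at an unadjusted p under 0.05; ANLN, a cytokinesis scaffold, stood at -1.66 and CENPF, a kinetochore protein, at -1.56. The median of the list was -0.73 without control replicate 1 and -1.26 without control replicate 2. The part of cell division in the serine gene levels was not tested.

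**Figure D4:**
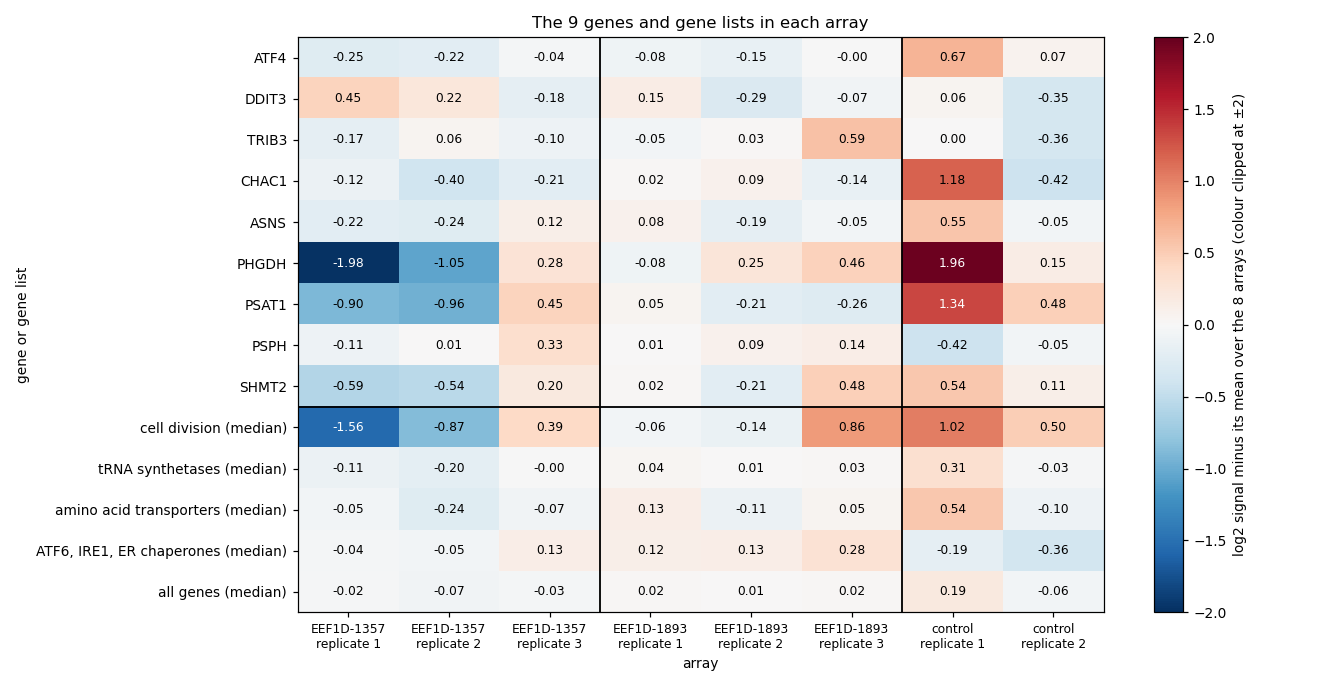
Level of each gene in each array minus its mean over the 8 arrays (colour and printed value, log2 scale, colour clipped at ±2), with the medians of 4 gene lists and of all genes below the horizontal line. PHGDH, PSAT1, SHMT2 and the cell division genes are lowest in EEF1D-1357 replicates 1 and 2, and control replicate 1 is the highest array for ATF4, CHAC1, ASNS, PHGDH, PSAT1 and SHMT2.

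EEF1D-1357 and EEF1D-1893 were also compared directly. The median log2 fold change of the 9 genes was -0.24 for EEF1D-1357 against EEF1D-1893 (all genes -0.05), with 7 of 9 below 0 against 58.4% of all genes. The groups overlapped for 9 of 9 genes, where 21.5% of all genes did not overlap and 14.8% had EEF1D-1357 below. PHGDH had a difference of -1.13 (adjusted p = 0.750), with EEF1D-1357 replicate 3 inside the range of the EEF1D-1893 arrays. Blocking on slide turned the sign for ATF4, ASNS, CHAC1, PHGDH, PSAT1, PSPH, SHMT2 and TRIB3, with 0 of 9 called where 0.0478% of all genes were called. In that fit each shRNA is set against the 1 control of its own slide, and the controls differ.

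Other genes of the pathways were taken as lists. None of the lists had a called member in the comparison of both shRNAs with control by limma without a block, so the counts are of fold changes on each side of 0, beside 57.2% of all genes below 0 and a median of -0.07. The median of all genes was 0.06 without control replicate 1 and -0.21 without control replicate 2. With slide as a block, where 5.48% of all genes were called, 3 of the 20 genes of the ATF6 and IRE1 branches and ER chaperones and 1 each of the eIF2 and transporter lists were higher. In that fit 2 folate, glycine and one-carbon genes and 1 synthetase were lower, and the other pathway lists had 0 called. At an unadjusted p under 0.05, 7.35% of all genes were higher and 9.59% lower.

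Of 17 further ATF4 targets, 14 had a fold change below 0 and the median was -0.12; GDF15, a secreted stress cytokine, stood at -1.84 (SE 0.69, adjusted p = 0.256). GDF15 was -3.99, -2.34 and -4.36 in EEF1D-1357, -4.96, -5.27 and -3.14 in EEF1D-1893 and -2.23 and -2.11 in the controls. All 6 shRNA arrays lay below both controls, and the probe was well above background on 7 of the 8 arrays. The list had 0 genes higher and 2 lower at an unadjusted p under 0.05. Its median was -0.14 without control replicate 1 and -0.06 without control replicate 2, with 11 of 17 below 0 in each, and scaled by the median it was -0.03.

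The regulators upstream of ATF4 lay on both sides of 0. Of 21 genes for the eIF2 kinases, eIF2B and the eIF2 phosphatase, 6 had a fold change below 0 and the median was 0.16 (0.10 without control replicate 1 and 0.18 without control replicate 2). Of these, 2 were higher and 1 lower at an unadjusted p under 0.05. EIF2S1, which encodes eIF2 alpha itself, stood at 2.92, 2.94 and 3.07 in EEF1D-1357, at 3.24, 3.22 and 3.22 in EEF1D-1893 and at 2.18 and 2.74 in the controls. All 6 shRNA arrays were above both controls (log2 fold change 0.64, SE 0.16, adjusted p = 0.164; the slide block gave an adjusted p of 0.035). Among the 4 kinases, EIF2AK2 (PKR, activated by double-stranded RNA) was the lowest gene of the list at -0.59 (SE 0.21, adjusted p = 0.237), with all 6 shRNA arrays below both controls. EIF2AK1 stood at -0.23, EIF2AK3 at 0.05 and EIF2AK4 at 0.16.

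The measured genes of the other branches of the unfolded protein response lay above 0 with few exceptions. Of 22 genes listed 20 were measured, and ATF6 and ERN1 (IRE1) themselves were not among these. Of 20 genes of the ATF6 and IRE1 branches and ER chaperones, 1 had a fold change below 0 (PDIA4, -0.07) and the median was 0.33, with 0.34 on slide 1 and 0.33 on slide 2. It was 0.44 without control replicate 1 and 0.22 without control replicate 2. The unadjusted p was under 0.05 for 6 higher and 0 lower genes. DNAJB9, an ER co-chaperone, stood at 1.46, 1.35 and 1.25 in EEF1D-1357, at 1.27, 1.28 and 1.36 in EEF1D-1893 and at 0.30 and 0.78 in the controls. XBP1, the factor spliced by IRE1, stood at 4.21, 3.91 and 4.13 in EEF1D-1357, at 4.14, 4.27 and 4.33 in EEF1D-1893 and at 3.61 and 3.49 in the controls. In both genes every shRNA array lay above both controls. The fold change was 0.79 for DNAJB9 (SE 0.15, adjusted p = 0.145, and 0.034 in the slide block) and 0.62 for XBP1 (SE 0.13, adjusted p = 0.154, and 0.046 in the slide block).

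Of 19 cytosolic aminoacyl-tRNA synthetases, 17 had a fold change below 0 and the median was -0.17; scaled by the median, 13 of 19 were below 0 and the median was -0.08. Without control replicate 1 it was 9 of 19 with a median of 0.0036, and without control replicate 2 it was 16 of 19 with a median of -0.37. The unadjusted p was under 0.05 for 0 higher and 3 lower genes. MARS1, which charges methionine tRNA, stood at -0.72, -0.62 and -0.41 in EEF1D-1357, at -0.15, -0.39 and -0.14 in EEF1D-1893 and at 0.89 and 0.07 in the controls. All shRNA arrays were below both controls (log2 fold change -0.89, SE 0.23, adjusted p = 0.165, and 0.036 in the slide block).

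Of 15 amino acid transporters, 13 were below 0 and the median was -0.26. Without control replicate 1 it was 8 of 15 with a median of -0.02, and without control replicate 2 it was 13 of 15 with a median of -0.54. At an unadjusted p under 0.05, 1 was higher and 1 lower. The gene with the smallest p was SLC38A9, a lysosomal arginine sensor of the mTORC1 pathway, which stood at 0.02, 0.04 and -0.17 in EEF1D-1357, at 0.16, 0.28 and 0.22 in EEF1D-1893 and at -0.61 and -0.30 in the controls. The shRNA arrays all lay above both controls (log2 fold change 0.55, SE 0.14, adjusted p = 0.159, and 0.044 in the slide block). SLC6A9, a glycine carrier, stood at -0.44 with all 6 below both controls, and SLC7A5, a carrier of large neutral amino acids, at -0.59 (SE 0.32, adjusted p = 0.377).

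In serine and glycine use, 13 of 21 folate, glycine and one-carbon genes had a fold change below 0 and the median was -0.14 (-0.12 without control replicate 1 and -0.25 without control replicate 2). At an unadjusted p under 0.05, 2 were higher and 3 lower. CBS, which draws serine into cysteine synthesis, stood at -2.17, -2.39 and -2.00 in EEF1D-1357, at -1.61, -1.76 and -1.61 in EEF1D-1893 and at -1.02 and -1.19 in the controls. Every shRNA array was below both controls (log2 fold change -0.82, SE 0.14, adjusted p = 0.140, and 0.036 in the slide block). AMT, of the glycine cleavage system, stood at -0.54 with all shRNA arrays below both controls (adjusted p = 0.154, and 0.041 in the slide block). On the other side, DLD, a subunit of the same system, stood at 0.44 with all 6 above both controls (SE 0.15, adjusted p = 0.237). SDS, which degrades serine, had a signal of -6.18, -4.91 and -5.03 in EEF1D-1357, of -5.75, -4.47 and -5.35 in EEF1D-1893 and of -6.75 and -6.62 in the controls. The shRNA arrays all lay above both controls, but the probe was well above background on 3 of the 8 arrays.

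Of 16 genes for the synthesis of other amino acids, 10 were below 0 and the median was -0.09 (8 of 16 when scaled by the median). The direction turned with 1 array, at 5 of 16 and a median of 0.19 without control replicate 1 and 13 of 16 and -0.23 without control replicate 2. OAT, of the ornithine route, stood at 0.65 and PYCR1, of proline synthesis, at -0.51.

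**Figure D5:**
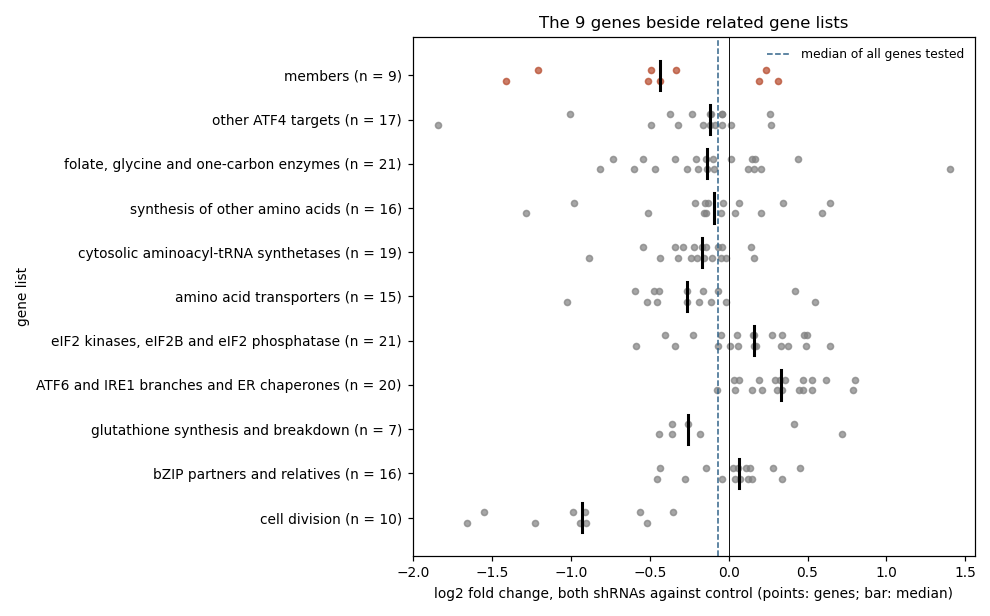
Log2 difference between the mean of the shRNA groups and control (horizontal axis) for each gene (points) of the 9 genes and of 10 related lists (rows), with the median of each row (bar) and the median of all genes tested (dashed line). The medians run between -0.93 for cell division and 0.33 for the ATF6 and IRE1 branches and ER chaperones; the 9 genes have -0.43.

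Outside the 9 genes, 10675 genes were well above background on all 8 arrays. Of these, the most like the median profile of the 9 genes were HMGXB3 (Pearson r = 0.987), GAPDHS (0.985), MRPL46 (0.983), SLC7A5 (0.980) and NUP62 (0.979). In each of these 5, control replicate 1 was the highest array, and all the points share the same 8 arrays and their scaling. Of the 9 genes, ASNS (r = 0.960 with the median profile of the others), ATF4 (0.912) and PSAT1 (0.877) followed the rest most closely, whereas TRIB3 (-0.03), DDIT3 (-0.29) and PSPH (-0.56) did not. Control replicate 1 was the highest array for ASNS, ATF4 and PSAT1 too, as for 39.1% of all genes.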

How the data were processed

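Expression was measured on 8 one-colour Agilent arrays. The scanner files hold spot intensity values, per the file headers from Feature Extraction 10.7.3.1 (the submitters' processing notes name 9.1), and the processed intensity is background-subtracted but not normalized between arrays. Other columns are 0 or 1 flags per spot, per the file headers. The deposited table holds log2, quantile normalized values of the authors and served as an alternative. Of 43653 probes, 238 with an outlier spot on any array were dropped; 34289 were named, through the ARS-UCD2.0 RefSeq gene table (names only). The members were taken by the name in the files.

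The log2 processed intensity minus the 75th percentile of its array was fitted with 1 mean per group in limma 3.58.1 (R 4.3.3, statmod 1.5.0), over 12550 genes, each by its brightest probe well above background on at least 2 arrays. There were 5 residual degrees of freedom, and 2.12 were added by the prior. The workflow was tested on simulated data. The members and lists were chosen with earlier results of these data known, and so was the rule for named genes: EEF1D, all members, of each list up to 4 genes by p-value and the highest and lowest fold change, and the 5 genes most like the median profile; other genes named were chosen after their values were seen. Same-numbered arrays correlated between -0.114 and 0.142 in their deviations from group means, which did not show that the numbers pair the arrays. Alternatives were normexp with an offset of 50, quantile normalization, median scaling, other filters, the deposited table, single probes as features, averaged probes of a gene, other priors, array weights, slide or replicate number as a block, and each array left out. The precision is limited by the 8 arrays.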

Additional observations from a re-analysis of the deposited data

How the results depend on the processing

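Calls depended on 1 array and on the slide. With slide as a block, 1 of 9 members was called for both shRNAs, where 5.48% of all genes were called. For EEF1D-1893 it was 2 of 9, where 14.6% of all genes were called. The fit as reported called 0. Calls also depended on leaving out control replicate 2, where the lone control is assumed to vary like the shRNA groups. With the replicate number as a replicate block, which the check of pairing did not bear out, 0 members were called in each of the 4 comparisons. Array weights gave adjusted p = 0.913 for ATF4, PSAT1 and PHGDH with both shRNAs. The members' median for both shRNAs ran between -0.65 and -0.04 when each array was left out in turn. Some signs turned, and the cause was not tested. With the mean of a gene's probes, DDIT3 had -0.16 for both shRNAs, -0.057 for EEF1D-1357 and -0.26 for EEF1D-1893, and TRIB3 -0.00099 for EEF1D-1357. With slide as a block, or on 1 slide alone, CHAC1 had 0.17 for EEF1D-1357 and DDIT3 -0.13 for EEF1D-1893. For EEF1D-1357 against EEF1D-1893 the slide block gave 0.53 for ASNS, 0.51 for ATF4, 1.36 for CHAC1, 0.68 for PHGDH, 0.53 for PSAT1, -0.37 for PSPH, 0.022 for SHMT2 and 0.10 for TRIB3. In the same comparison PSPH, at 0.00010 as reported, had -0.0030 with normexp, -0.011 with quantile normalization, -0.059 with the mean of probes, -0.010 in the deposited table and -0.065 with array weights, and ASNS had 9.0e-05 with median scaling. With each array left out in turn, the ranges that crossed 0 were -1.31 to 0.29 (CHAC1) and -0.012 to 0.39 (DDIT3) for both shRNAs, -1.43 to 0.17 (CHAC1) and -0.075 to 0.29 (TRIB3) for EEF1D-1357, -1.19 to 0.41 (CHAC1), -0.13 to 0.28 (DDIT3) and -1.75 to 0.056 (PHGDH) for EEF1D-1893, and -0.18 to 0.0020 (ASNS) and -0.13 to 0.093 (PSPH) for EEF1D-1357 against EEF1D-1893. Other scalings moved the median fold change of all genes from -0.07 to -0.02 (quantile), 0.02 (median) and -0.01 (normexp), and the share below 0 from 57.2% to 52.4%, 47.9% and 51.8%.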

Other observations

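Of 5 paralogues of the members, 3 had a fold change below 0 for both shRNAs against control and the median was -0.03 (2 of 5 and 0.06 when scaled by the median, 2 of 5 and 0.24 without control replicate 1, 2 of 5 and 0.14 without control replicate 2). CHAC2, a glutathione-degrading relative of CHAC1, stood at -2.35, -2.49 and -2.21 in EEF1D-1357, at -1.90, -2.16 and -2.58 in EEF1D-1893 and at -3.48 and -2.52 in the controls (log2 fold change 0.72 for both shRNAs). EEF1D-1893 replicate 3 overlapped control replicate 2. SHMT1, the cytosolic partner of SHMT2, stood at -4.13, -4.07 and -3.11 in EEF1D-1357, at -2.94, -3.37 and -2.57 in EEF1D-1893 and at -2.62 and -2.65 in the controls (log2 fold change -0.73). The shRNA arrays lay below both controls except EEF1D-1893 replicate 3. Of 16 bZIP partners and relatives of ATF4, 5 had a fold change below 0 and the median was 0.06. Without control replicate 1 it was 10 of 16 with a median of -0.07, and without control replicate 2 it was 6 of 16 with a median of 0.15. Of 7 genes of glutathione synthesis and breakdown, 5 were below 0 and the median was -0.26 (-0.15 without control replicate 1 and -0.37 without control replicate 2).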
